A study of Glycine max with 4 samples.

Results

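Binding of the soybean protein GLYMA.13G317000 in developing embryos was described here at its wide single-peak regions. Peaks of the 2 ChIP replicates that overlapped by at least 1 bp were merged. Regions with exactly 1 peak of each replicate and a merged width of at least 800 bp were kept on the 20 chromosomes. This gave 1208 regions of the 28300 with exactly 1 peak of each replicate there, a share of 4.27% (Wilson 95% interval 4.04 to 4.51%). The other 27092 such regions, all narrower, are the comparison throughout. The series as a whole had 48207 merged regions, of which 28903 held peaks of both replicates. The members were chosen by width, so their width is a description, and measures from the same peaks (fold, summit, extent) are given without a test.

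Chromatin came from embryos of the cultivar Williams 82 at the early maturation stage, dissected from seeds and crosslinked with formaldehyde. Chromatin immunoprecipitation followed by sequencing (ChIP-seq) used an antibody against a peptide of the protein. The series holds 2 ChIP libraries and 2 input libraries of chromatin without antibody. All 4 share the cultivar and stage and no treatment is named, so no condition was compared. Whole embryos were used, so binding in different cell types is averaged. With input as the sole kind of control, binding by related proteins that share the peptide cannot be separated from binding by this one. Per the labels' protocols the chromatin was sheared to fragments of 100 to 500 bp, which sets the scale on which a width of 800 bp is wide.

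The names of the deposited peaks carry BZIP67, taken here as the name of the same protein, which the labels do not state. Basic leucine zipper (bZIP) transcription factors bind DNA as dimers through a basic region next to a coiled leucine zipper, commonly at elements with an ACGT core such as the G-box. In Arabidopsis, bZIP67 is known as a seed factor that acts during maturation, when storage protein and oil accumulate. In ChIP-seq, reads around a bound site pile up over roughly the length of the sheared fragments, and the caller places the summit where the pileup is highest. A caller that does not split peaks reports neighbouring sites under continuous signal as 1 wide peak with 1 summit.

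The signal in these regions rested on many fragments. Pileup is the number of ChIP fragments over the summit, and it was recovered from the authors' deposited fold together with the −log10 p. The fold is the authors' ratio of the summit to its local background. In the wide regions the median pileup was 129.5 fragments in replicate 1 (quartiles 91 and 183, range 32 to 408) and 83 in replicate 2 (56 and 123, range 23 to 398). In the narrower regions it was 71 and 44 fragments. The local background was like that of the narrower regions, with medians of 10.08 fragments in both classes in replicate 1, and 8.11 against 7.81 in replicate 2.

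Widths ran from 800 to 2108 bp with a median of 909.5 bp, and 90% of the regions were at most 1171 bp wide. The narrower regions had a median of 425 bp. Together the wide regions covered 1.16 Mb, which is 8.76% of the 13.2 Mb covered by all single-peak regions. The counts of regions by width showed no gap at the threshold. The 137 regions of 800 to 819 bp had a median of the mean fold of both replicates of 9.44, a median summit offset of 24.9% and a median summit distance of 24 bp. The 177 regions of 780 to 799 bp had 9.40, 27.5% and 21 bp. No break in these values was seen at the threshold.

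Wide extent was seen in both lists at a minority of the members. Both peaks reached 800 bp in 407 regions, 33.7% of the members. In 717 regions (59.4%) the replicate 1 peak did and the replicate 2 peak did not. The reverse held in 36 regions (2.98%), and in 48 regions (3.97%) the merged region passed 800 bp while neither peak did. Median peak width in the members was 896 bp in replicate 1 and 737.5 bp in replicate 2. The replicate 2 peak covered a median of 81.0% of the merged region, close to the 81.3% in the narrower regions. Peak widths in the 2 lists had a Spearman correlation of 0.38 over the 1208 members and 0.71 over the 27092 narrower regions. These correlations are descriptions over regions of the same libraries, and the narrow range of widths among the members lowers the first, so they are not compared.

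The 10 widest regions show the forms that a wide peak took. The widest lay on chromosome 17 from 15256114 to 15258221, 2108 bp. Its folds were 15.6 in replicate 1 and 16.9 in replicate 2 (mean 16.2 ± 0.916, SD, n = 2). The summits fell on 15256369 in replicate 1 and 15256373 in replicate 2, near its left end, and at 4 bp were the closest of the 10. The distance from the mean summit to the nearer edge is called the short arm here, and to the farther edge the long arm. The short arm was 257 bp and the long arm 1850 bp, so nearly all of this region lay to one side of the site of highest signal. The replicate 2 peak stopped 967 bp short of the right end and covered 1141 bp, while its summit kept its place.

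The second, on chromosome 13 from 37115004 to 37117057 (2054 bp), had its summits 26 bp apart and near the middle, with arms of 887 and 1166 bp. Its folds of 6.79 and 6.80 (mean 6.79 ± 0.0107, SD, n = 2) rested on 85 fragments in replicate 1 (exact Poisson 95% interval 67.9 to 105.1) and 61 in replicate 2 (46.7 to 78.4). Both replicates gave it nearly its full width, 2044 and 1925 bp. The region on chromosome 2 from 10715307 to 10717152 (1846 bp) was also wide in both, with peaks of 1846 and 1797 bp. It was the strongest of the 10, with folds of 20.8 and 21.7 (mean 21.2 ± 0.586, SD, n = 2), pileups of 261 and 202 fragments, and arms of 893.5 and 951.5 bp. These 2 regions and the one on chromosome 16 from 4820466 to 4822400 (1935 bp, arms of 896 and 1038 bp, folds 18.6 and 14.4) had summits near the centre.

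In the others the summit lay to one side. The region on chromosome 20 from 38295682 to 38297710 (2029 bp) had folds of 15.9 and 9.36, the widest gap between replicates of the 10 (mean 12.6 ± 4.61, SD, n = 2). Even so, only 26 bp separated its summits. On chromosome 18, the region from 53819380 to 53821272 (1893 bp) had folds of 19.9 and 18.0 and a long arm of 1542.5 bp. On chromosome 19, the region from 34804908 to 34806620 (1713 bp) had folds of 22.0 and 17.9 and peaks of 1713 and 1657 bp. A region of equal width on chromosome 17 from 5462697 to 5464409 had lower folds of 10.8 and 6.80, and its replicate 2 peak covered 1019 bp. The region on chromosome 10 from 49418035 to 49419746 (1712 bp) had folds of 15.5 and 13.2 and a long arm of 1309 bp. The remaining one, on chromosome 15 from 47403124 to 47405162, belonged to a class with a high local background described further on. In all 10 the summits of the replicates lay within 72 bp of each other. The widest region of each chromosome ran from 1406 to 2108 bp.

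**Figure D1:**
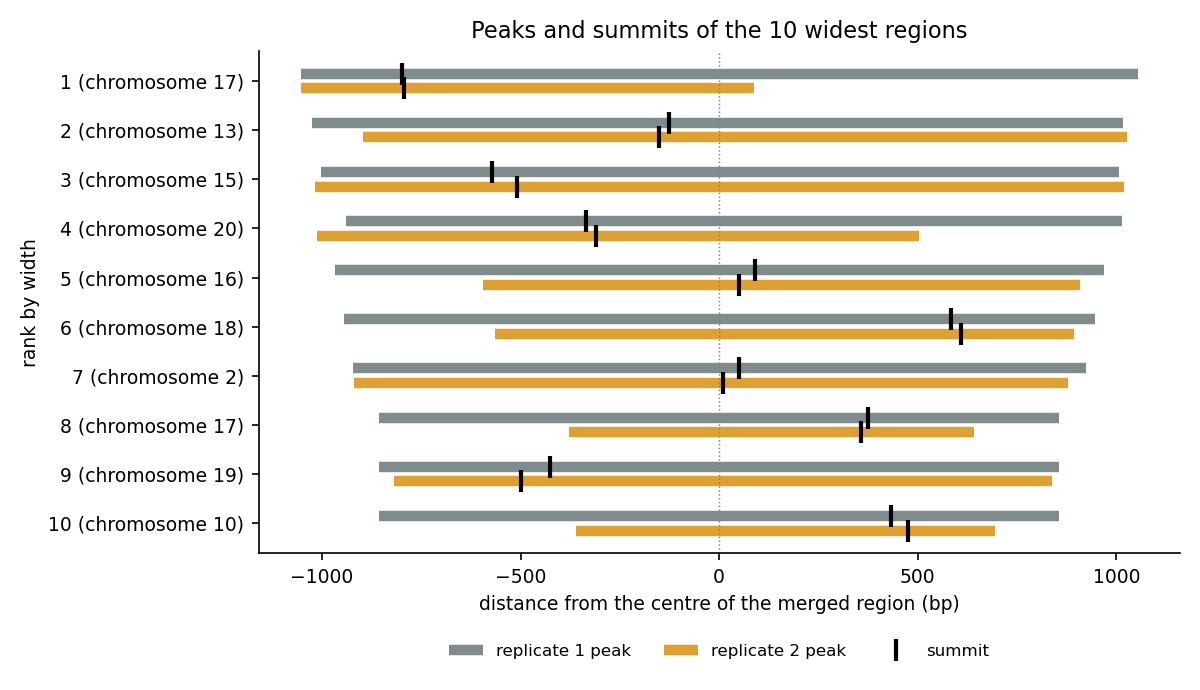
Extent and summit of both replicates' peaks in the 10 widest regions, as distance in bp from the centre of the merged region. Grey bars are replicate 1 peaks, orange bars replicate 2 peaks and black ticks summits; the paired ticks lie within 72 bp of each other in each region, while the bars extend unequally to the left and right of them.

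The wide regions were stronger than the narrower ones but spanned almost the whole range of strength. The median of the mean fold was 10.2 (quartiles 7.15 and 14.7, range 1.81 to 33.99) against 5.63 in the narrower regions (4.36 and 8.02). By replicate the medians were 11.6 and 8.80 in the wide regions, and 6.37 and 4.93 in the narrower. A mean fold of 20 or more was found in 110 wide regions (9.11%) and 245 narrower ones (0.904%). Nonetheless 379 wide regions, 31.4%, had a mean fold under 8. The 5 strongest were between 828 and 1049 bp wide, so none of them was among the 10 widest. The first lay on chromosome 5 from 7031505 to 7032332, with folds of 32.4 and 35.5 and short and long arms of 316.5 and 510.5 bp. The next lay on chromosome 11 from 2852676 to 2853714, with folds of 30.8 and 35.3 and arms of 334 and 704 bp. Of the others, the region on chromosome 8 from 21316513 to 21317359 had arms of 404.5 and 441.5 bp. The region on chromosome 16 from 13050110 to 13051158 had arms of 513.5 and 534.5 bp. The last, on chromosome 8 from 3808057 to 3808896, had arms of 347.5 and 491.5 bp. The summits of these 5 regions were 2 to 29 bp apart.

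The median fold was higher in wider classes, with much overlap between them. The median of the mean fold went from 3.89 in regions of 200 to under 300 bp to 6.33 at 400 to under 500 bp and 8.96 at 700 to under 800 bp. Among the wide regions it was 9.63 at 800 to under 900 bp (n = 573), 10.5 at 900 to under 1000 bp (n = 298), 10.1 at 1000 to under 1100 bp (n = 171) and 11.4 at 1100 to under 1200 bp (n = 70). In the 96 regions of 1200 bp or more it was 12.4. At each of these widths the quartiles were wide, for example 6.42 and 13.6 at 800 to under 900 bp. Across the members the Spearman correlation of width with mean fold was 0.13 (n = 1208), and it was 0.58 across the narrower regions (n = 27092), given as descriptions over regions that share libraries. The narrow range of widths among the members lowers the first value, so the correlations are not compared. Read the other way, the share of single-peak regions that were wide was 1.84% at a mean fold under 8. It was 7.68% from 8 to 12, 12.1% from 12 to 16, 19.8% from 16 to 20 and 31.0% at 20 or more. Even in the strongest class, most regions were narrower than 800 bp.

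**Figure D2:**
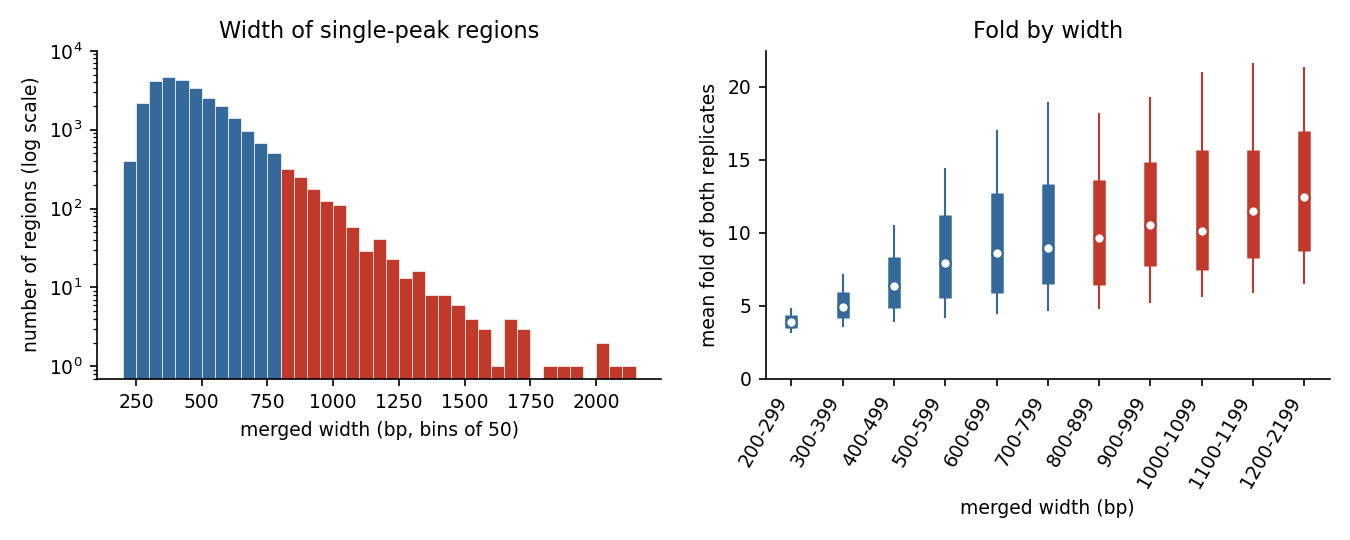
Left, number of single-peak regions (log axis) by merged width in bins of 50 bp, blue under 800 bp and red from 800 bp. Right, mean fold of both replicates by width, with the median (circle), quartiles (thick bar) and the span that holds the middle 80% of regions (thin line); the median goes from 3.89 at 200 to under 300 bp to 8.96 at 700 to under 800 bp, and from 9.63 to 12.4 in the red classes.

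The replicates agreed on the order of strength among the wide regions. The Spearman correlation of the fold in replicate 1 with that in replicate 2 was 0.91 (Pearson 0.90, n = 1208), and that of the pileups was 0.97. Among the narrower regions the fold correlation was 0.82 (Pearson 0.89, n = 27092), and that of the pileups was 0.90. Folds of the narrower regions lie closer together, which lowers their correlation, so the classes are not compared. Regions are not independent, so no p-value was attached. The fold was lower in replicate 2 in 84.1% of wide and 80.8% of narrower regions, with median ratios of replicate 2 to replicate 1 of 0.798 and 0.806. Expressed as a percent of the mean, the SD of the fold (n = 2) had a median of 16.7% in either class.

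The summit of a wide region commonly lay off its centre. The summit offset is the distance of the mean summit from the centre of the merged region, as a percent of the distance from centre to edge. It is 0% at the centre and 100% at an edge. The median offset was 30.7% in the wide regions (quartiles 16.9 and 44.8%) and 10.9% in the narrower ones (4.85 and 19.8%). Each replicate alone gave a like value, with medians of 32.9% in replicate 1 and 33.8% in replicate 2 for the wide regions, and 11.8% and 14.3% for the narrower. In base pairs the median offset was 144.5 bp against 22 bp. The offset passed 25% in 738 wide regions, or 61.1% (Wilson 95% interval 58.3 to 63.8%), and in 16.0% of the narrower ones (15.6 to 16.5%). It passed 50% in 192 wide regions, or 15.9%, against 0.978%. Among the narrower regions the median offset was 7.63% at 300 to under 400 bp and 14.9% at 500 to under 600 bp. At 700 to under 800 bp it was 24.7%, near the 28.9% of the wide regions of 800 to under 900 bp. A large offset is thus shared with the widest of the narrower regions. Wilson and Poisson intervals cover counting error alone.

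The displacement went to the same side in both replicates. Both summits lay on the same side of the centre in 1087 of 1208 wide regions, 89.98% (Wilson 95% interval 88.2 to 91.6%), against 67.2% of the narrower regions. This share went up with width, from 52.0% at 200 to under 300 bp to 87.9% at 700 to under 800 bp. It was 88.1% at 800 to under 900 bp, so no break was seen at the threshold. In the narrower regions the median offset of 22 bp was no larger than the median summit distance of 22 bp. In the wide regions these were 144.5 and 20 bp. The offsets of both replicates had a Spearman correlation of 0.79 across the wide regions and 0.40 across the narrower. The smaller range of offsets among the narrower regions lowers the second value, so the correlations are not compared. The direction along the chromosome was even, with the mean summit left of the centre in 604 of 1208 wide regions (Wilson 95% interval 47.2 to 52.8%). After the widest region, the most off-centre member lay on chromosome 9 from 33456274 to 33457778 (1505 bp). It had folds of 11.6 and 10.3, an offset of 71.7% and arms of 212.5 and 1291.5 bp. The third, on chromosome 13 from 40198458 to 40199417 (960 bp), was weak, with folds of 3.33 and 4.09 on 50 and 34 fragments. Both of its summits fell on position 40199281, and its replicate 2 peak covered 261 bp around it.

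**Figure D3:**
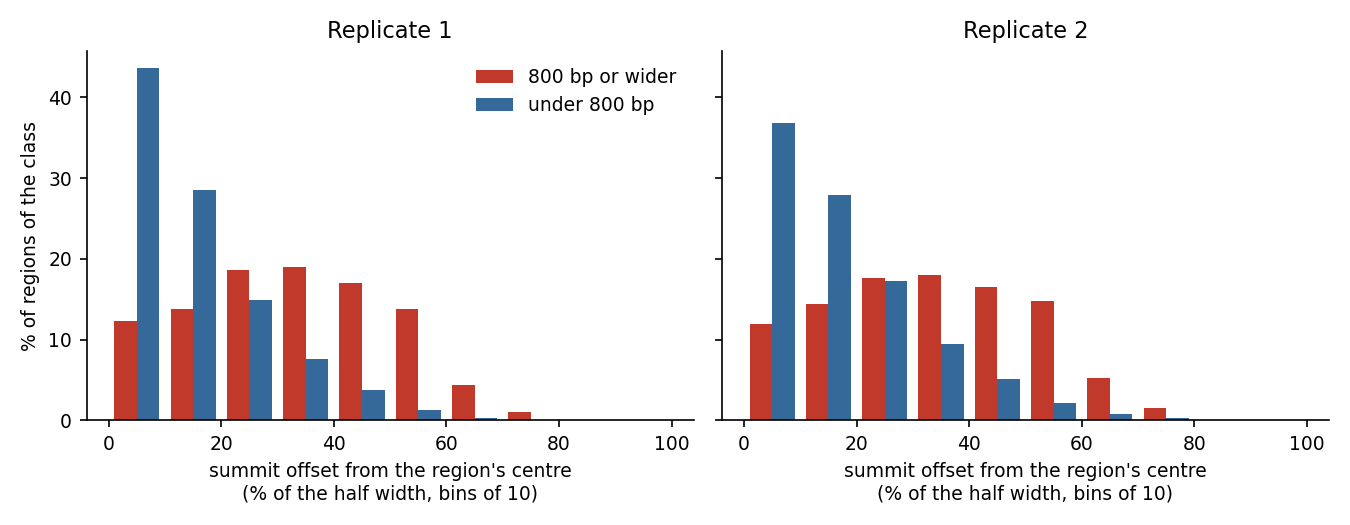
Share of regions (percent of each class) by the offset of the replicate's summit from the centre of the merged region, in bins of 10% of the distance from centre to edge, for replicate 1 (left) and replicate 2 (right). Regions of 800 bp or more (red) peak between 30 and 40% in both replicates, and narrower regions (blue) peak under 10%.

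Both arms of a wide region were longer than those of narrower regions, the long arm more so. The short arm had a median of 321.8 bp (quartiles 258.5 and 390.5) in the wide regions and 182 bp in the narrower ones. The long arm had a median of 605 bp (528.2 and 692) against 236 bp. Because stronger regions are wider, the arms are also given within classes of mean fold. At a mean fold of 8 to 12, the short and long arms were 304 and 612.5 bp in the 373 wide regions, and 216 and 280 bp in the 4481 narrower ones. At a mean fold of 20 or more they were 369 and 579 bp in 110 wide regions, against 297.5 and 362 bp in 245 narrower ones. The short arm of the wide regions went from 298 bp at a fold under 8 to 369 bp at 20 or more, close to the long arm of narrower regions of the strongest class. Their long arm stayed between 579 and 613.5 bp in all 5 classes. The offset was accordingly larger in the weak wide regions, with a median of 34.8% at a fold under 8 and 22.2% at 20 or more. A width of at least 800 bp needs a long arm of about 400 bp or more, so the rule itself sets a lower limit to this arm. It also keeps the short arm of narrower regions under about 400 bp. Both arms together make up the width, so their larger sum in the wide regions is set by the rule in every fold class. The contrast of arms between wide and narrower regions is thus a description only.

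The extent of both replicates' peaks was compared at each end of a region. In the 717 regions that reached 800 bp in replicate 1 and not in replicate 2, the replicate 1 peak went a median of 220 bp (quartiles 98 and 382) beyond the replicate 2 peak on the long arm. On the short arm it went a median of 51 bp (21 and 94) beyond it. The long arm had the larger excess of replicate 1 in 585 of them, 81.6%. This share was 57.5% in the 407 regions wide in both replicates, 38.9% in the 36 wide in replicate 2 alone and 66.4% in the narrower regions. The arms were measured on the merged region, so an excess of replicate 1 lengthens the arm it lies on, and the 717 were chosen for the wider peak of replicate 1; nothing is read from these shares. The narrower peak of replicate 2 still contained the replicate 1 summit in 706 of the 717, 98.5%. The median fold in these regions was 10.8 in replicate 1 and 7.85 in replicate 2. In the 407 regions wide in both replicates it was 13.6 and 10.5, and the difference on the long arm was a median of 36 bp. In the narrower regions the differences were 49 bp on the long arm and 22 bp on the short. The weaker signal of replicate 2 moves with the narrower peaks, and its part in the result was not tested.

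Summits agreed between replicates about as closely in wide as in narrower regions at the median, but wide regions had a tail of disagreement. The median distance between both summits was 20 bp in the wide regions (quartiles 8 and 45) and 22 bp in the narrower (10 and 41). In 945 wide regions, 78.2%, the summits lay within 50 bp, against 81.9% of the narrower. Distances over 100 bp were found in 135 wide regions, 11.2% (Wilson 95% interval 9.52 to 13.1%), against 4.00% (3.77 to 4.24%). Distances over 200 bp were found in 86, 7.12% (5.80 to 8.71%), against 0.930% (0.823 to 1.05%). A region under 800 bp has less room for distant summits, so part of this contrast is set by the width itself.

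The tail lay among the weaker regions. At a mean fold under 8, 24.0% of the 379 wide regions had summits over 100 bp apart, against 5.18% of the narrower regions of that class. The shares were 7.51% against 0.714% at a fold of 8 to 12, 5.53% against 0.0635% at 12 to 16, and 3.10% against 0.191% at 16 to 20. The last 2 pairs rest on few regions. They are 12 of 217 wide against 1 of 1575 narrower regions, and 4 of 129 against 1 of 523. At a fold of 20 or more, 0 of 110 wide regions (which allows a share of up to 2.73%) and 0 of 245 narrower ones (up to 1.22%) had such summits. Of the 86 wide regions with summits over 200 bp apart, 62 had a mean fold under 8. The median fold of the 86 was 7.04 in replicate 1 and 4.98 in replicate 2, on medians of 74.5 and 44 fragments.

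**Figure D4:**
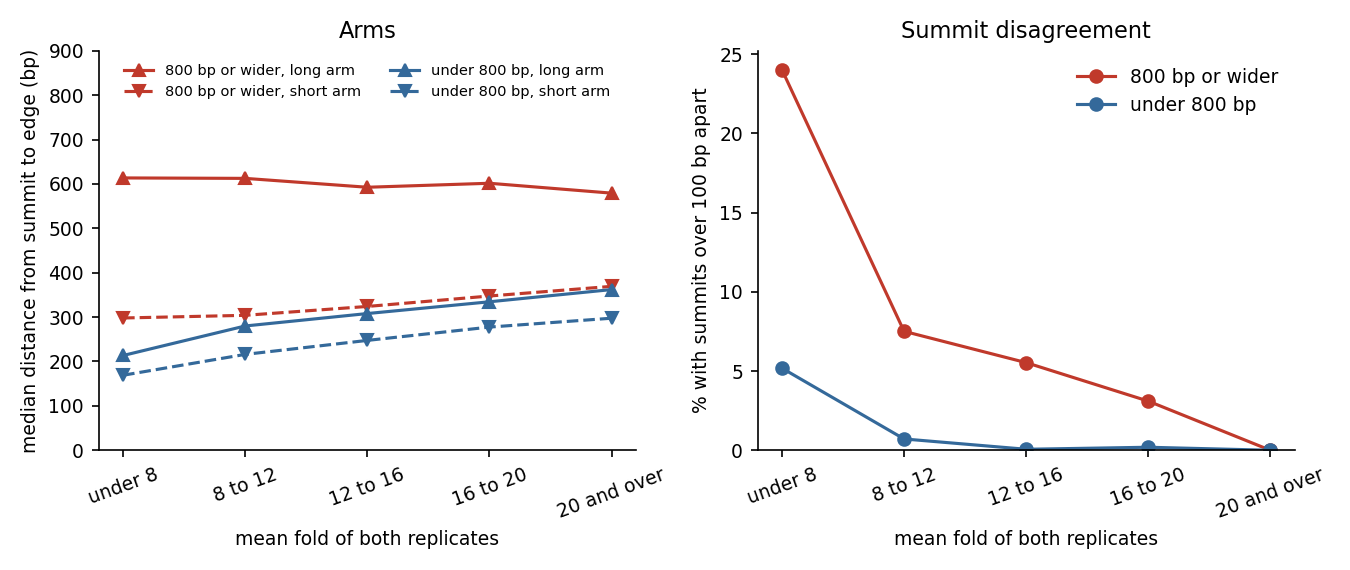
Left, median distance in bp from the mean summit to the farther edge (solid, long arm) and to the nearer edge (dashed, short arm) by mean fold. Right, percent of regions with summits of the replicates over 100 bp apart; red is 800 bp or wider and blue is under 800 bp. The red long arm stays between 579 and 613.5 bp, and the red share on the right goes from 24.0% in the weakest class to 0% in the strongest.

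In these regions the replicates put their summits at different places within the same merged region. The replicate 2 peak had a median width of 783.5 bp there (quartiles 606.5 and 852.5), so it was often under 800 bp. In replicate 1 the median was 924 bp. The 86 distances had a median of 358 bp (quartiles 275.2 and 449.8), and in 70 of the 86 (81.4%) the summits lay on opposite sides of the centre. The largest distance, 1114 bp, was found on chromosome 10 from 48806690 to 48808340 (1651 bp). There replicate 1 had its summit at 48808028 (fold 15.0, 159 fragments) and replicate 2 at 48806914 (fold 10.3, 103 fragments), although both peaks were wide, 1596 and 1643 bp. On chromosome 12 from 13054384 to 13055559 the distance was 848 bp, with folds of 3.64 in both replicates on 47 and 29 fragments. Here the replicate 2 peak covered 226 bp, on the side away from the replicate 1 summit. On chromosome 15 from 5338782 to 5340279 the summits were 713 bp apart, with folds of 10.9 and 9.09 and peaks of 1457 and 1498 bp. Since 1 peak carries 1 summit in the deposited lists, a second maximum within a peak cannot be read from these regions where both replicates chose the same one.

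Some regions hold several peaks of one list. On the same chromosomes, 445 regions had peaks of both replicates and at least 2 peaks in one of the lists. Their median width was 948 bp, and 358 of them (80.4%) were at least 800 bp wide. Where a replicate had exactly 2 peaks in such a region, its summits were a median of 492 bp apart (quartiles 427.5 and 597, n = 443 pairs). The 358 bp between replicate summits in the 86 wide regions is a median over distances chosen to be above 200 bp, so the values are set side by side without a comparison. These regions were set beside the wide ones after the values were seen.

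A class of 12 wide regions, 0.993%, stood apart by a local background above 30 fragments in both replicates. Among the narrower regions, 0.709% had such a background in at least 1 replicate. Their folds were 1.62 to 2.22 in replicate 1 and 1.97 to 2.64 in replicate 2, on pileups of 205 to 408 and 204 to 398 fragments. These were the 12 lowest mean folds of all members, over a background of 100.8 to 216.4 fragments in the first replicate, with 82.9 to 172.6 in the second. Their fold was higher in replicate 2 in all 12, with ratios of replicate 2 to replicate 1 of 1.13 to 1.25, where the median ratio of the other 1196 members was 0.795 (range 0.353 to 1.68). The replicate 2 peak spanned the whole merged region in each of the 12. The 5 weakest members all belong to this class. On chromosome 12, 5 of the class lay between 39184519 and 39194664, and on chromosome 15, 2 lay between 47403124 and 47406337. The weakest of all lay on chromosome 8 from 47499776 to 47500709, with folds of 1.65 and 1.97. The other regions among the 5 weakest lay on chromosome 4 from 33841620 to 33842649 (1.67 and 1.98), on chromosome 12 from 39190241 to 39191117 (1.68 and 2.11), and both on chromosome 15 (1.62 and 2.03, 1.87 and 2.11). Among the 1196 members without them, the lowest mean fold was 3.01.

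Wide regions were spread over the chromosomes much as other regions were. Each of the 20 chromosomes held between 31 (chromosome 16) and 81 (chromosome 6), and the average was 1.27 per Mb against 28.6 narrower regions per Mb. The share of single-peak regions that were wide ran from 3.09% on chromosome 18 to 5.51% on chromosome 4. Chromosome 11 had the highest density of wide regions, 2.02 per Mb, and chromosome 18 the lowest, 0.707 per Mb. Chromosome 13, with the most single-peak regions (2050), had 77 wide ones, a share of 3.76%. Across the 20 chromosomes, the density of wide regions followed that of all single-peak regions with a Spearman correlation of 0.83, a description over chromosomes of the same libraries. The median of the mean fold of the wide regions ran from 8.95 on chromosome 18 to 12.2 on chromosome 7.

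Pooled over chromosomes, most wide and most narrower regions lay toward the chromosome ends, with a slightly higher share for the wide. Each chromosome was measured from its first base to the end of its last peak. The outer 20% at each end held 862 wide regions, 71.4% (Wilson 95% interval 68.7 to 73.8%), and 68.2% of the narrower ones (67.7 to 68.8%). Put otherwise, 4.45% of single-peak regions in the outer parts were wide (4.17 to 4.75%) and 3.87% of those between them (3.49 to 4.29%). The intervals overlap, which does not show that the shares are equal. The outer share was higher for wide than for narrower regions on 13 of the 20 chromosomes. By deciles of chromosome length the share that was wide ran from 3.13% in decile 5 to 4.64% in decile 10. The median of the mean fold of wide regions was 10.2 in decile 1 and 10.1 in decile 10, and 9.71 and 11.8 in deciles 5 and 6.

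Wide regions had close neighbours more often when gaps were measured from edge to edge. A greater width itself brings the edges nearer to the neighbours, and its part in the contrast was not tested. The gap to the nearest other region of either replicate was a median of 1614 bp for the wide and 2538 bp for the narrower regions. It was at most 2000 bp for 671 wide regions, 55.5% (Wilson 95% interval 52.7 to 58.3%), against 43.6% (43.0 to 44.2%). To the nearest region with peaks of both replicates the shares were 37.3% and 29.2%. The contrast was present in the outer parts of chromosomes, at 57.0% against 45.6%, and between them, at 52.0% against 39.3%. It was present in each class of mean fold, for example 56.7% against 43.5% at a fold under 8 and 60.9% against 53.1% at 20 or more. The long arm pointed to the nearest neighbour within 2000 bp in 364 of 671 wide regions, 54.2%, with a Wilson 95% interval of 50.5 to 58.0%, against 49.8% of the narrower regions (48.8 to 50.7%). For neighbours with peaks of both replicates the shares were 53.2% (48.6 to 57.8%) and 49.3% (48.2 to 50.4%). The nearest neighbour was chosen by its gap from the region's edge, so a long arm itself brings the neighbour on its side nearer. The median long and short arms were 605 and 321.8 bp in the wide regions, and 236 and 182 bp in the narrower. This can raise the share more in the wide regions, so nothing is read from these shares.

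**Figure D5:**
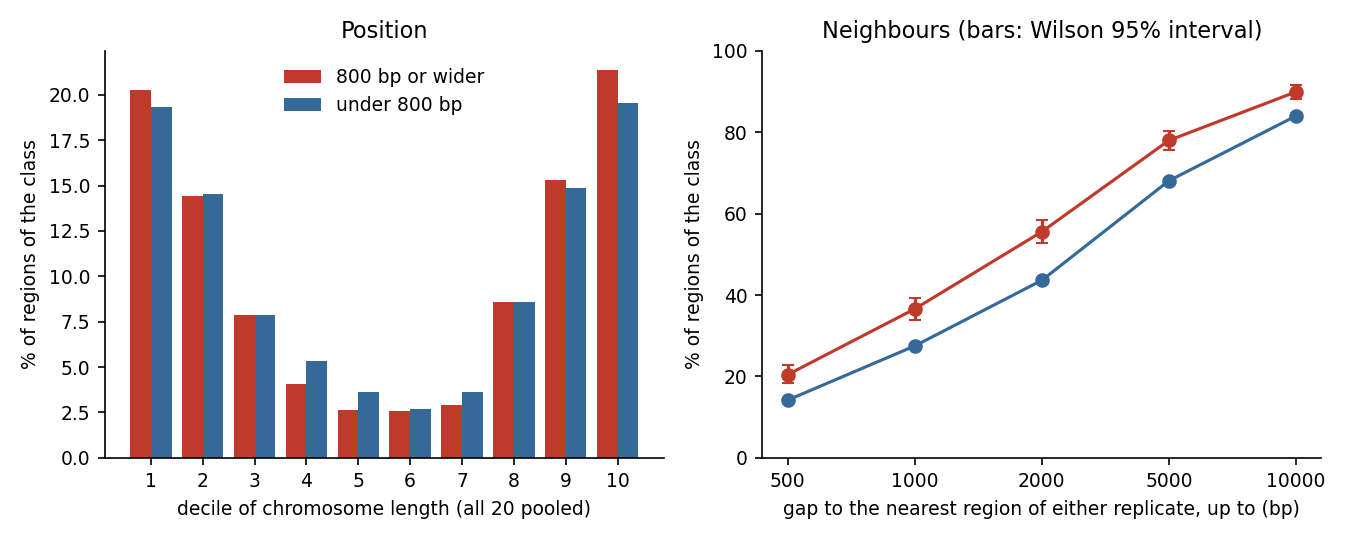
Left, percent of wide (red) and narrower (blue) regions in each decile of chromosome length, all 20 pooled; decile 1 holds 20.3% of the wide and 19.3% of the narrower regions. Right, percent of regions whose gap to the nearest region of either replicate is at most the length on the x axis, with Wilson 95% intervals; at 2000 bp the shares are 55.5% (red) and 43.6% (blue).

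Distances between wide regions depend on how many were kept, on average 1.27 per Mb. No random placement was run beside them. Each wide region had its nearest other wide region at a median of 120256 bp between mean summits, and 109 of 1208 (9.02%) had one within 10000 bp. Of the 1188 pairs of neighbouring wide regions on a chromosome, 57 were closer than 10000 bp and 11 closer than 2000 bp. The closest pair lay on chromosome 8, from 9020760 to 9021604 with a mean fold of 6.55 ± 0.949 (SD, n = 2), and from 9022114 to 9023047 with 9.19 ± 0.0366. Their mean summits were 1197 bp apart, with 509 bp between the regions. The next pair, on chromosome 12, belonged to the class with a high background. The third lay on chromosome 13, from 34675224 to 34676239 with 8.03 ± 1.69 and from 34677106 to 34677908 with 12.2 ± 2.06, at 1487.5 bp. The longest distance between neighbouring wide regions was 25.4 Mb.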

How the data were processed

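ChIP-seq peak lists of 2 replicates were analysed; no file of the input libraries was used. Bowtie 0.12.7 and MACS2 are named in the submitters' processing notes. Settings and build were not given in the sources used here. Per peak, the deposited values are a fold (ratio of summit to local background), −log10 p, −log10 q and a score of 10 times the −log10 q, made by the authors within each library. Peak names carry a q of 0.01. Read totals are unknown.

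Peaks sharing at least 1 bp were merged with Python 3.11.15, numpy 2.4.6 and pandas 2.3.3; intervals used scipy 1.17.1. Pileup and background were solved from the fold, with a pseudocount of 1, and the Poisson −log10 p, which a whole number met within 0.001 in 100% of peaks. Merging and solving were tested on simulated data and recovered 100% of 592 planted wide regions and 4965 pileups. The simulated backgrounds were far below those of the high-background class, which was thus not covered. In each planted wide region the replicate 2 peak lay within the replicate 1 peak, so other layouts were not tested. Positions are 1-based.

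With 2 libraries of 1 condition no test between groups was made; errors are SDs over replicates. The regions named were the 10 widest, the 5 strongest and 5 weakest by mean fold, the 3 most off-centre, the 3 with the most distant summits and the 3 closest pairs; those with a high background were added after their values were seen. The members, classes and alternatives were chosen with earlier results of these data known. The gene table used here belongs to assembly 4.0: on 4 chromosomes peaks lay over 100 kb beyond its last gene, and on 6 the last peak was over 1 Mb short of it. It was taken as another build, so genes, motifs and sequence at the regions were not analysed here.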

Additional observations from a re-analysis of the deposited data

Results flagged for a closer look

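Signal also lay outside the 20 chromosomes that the comparisons used. Of 156 regions with exactly 1 peak of each replicate on scaffolds, 5 were at least 800 bp wide, on 3 scaffolds. The strongest of them, on scaffold 21 from 3343569 to 3344381, reached a fold of 19.1 in replicate 1 against 12.99 in replicate 2. The widest, on scaffold 109 from 24409 to 25546 (1138 bp), had folds of 10.05 and 5.79. No control list was at hand to set a background level for these.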

How the results depend on the processing

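Of 43 alternative values, 24 stayed within the spread taken for each result and 19 moved beyond it. Only the correlation of width with fold could change sign, and it did so in 0 of its 3 alternatives. The number of wide regions, 1208, was 2401 and 337 with width minimums of 700 and 1000 bp, and 383 where both peaks had to cover 800 bp; with 1 list alone it ran from 480 to 1467 peaks. The median summit offset of 30.7% was 27.5% and 31.7% with those minimums, 32.9% with a −log10 q of at least 10 and 29.3% with an overlap of 50% of both peaks. Within its own peak it was 33.4% in replicate 1 and 28.3% in replicate 2, and a single replicate gave 32.9 to 33.8%. It was 33.0% for summits at most 100 bp apart and 33.8% as the mean of both offsets, both added after seeing the data. The nearest other wide region was at a median of 62787.5 bp and 558366 bp with the 2 other minimums, since more or fewer regions were kept. The correlation of width with fold, 0.128, was 0.135 with −log10 p, 0.156 with pileup and 0.146 without high-background regions (added later). For the other moves the cause was not tested. The median fold ran from 8.80 to 11.6 with 1 replicate alone. Its spread was taken from these same 2 medians, so they could hardly fall outside it. No paired analysis was possible because no file of the input libraries was used, and no test compares groups. Sequence alternatives were not run. A region with 1 summit per list may hold further sites that these files do not show.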
